A study of Mus musculus with 8 samples.

Results

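The genes described here were 10 adipocyte genes, Adipoq, Plin1, Plin4, Lep, Fabp4, Cidec, Cfd, Retn, Pparg and Lpl, out of 24419 gene symbols counted in mouse models of endometrial cancer. They were taken by symbol, all 10 were found, and they were picked because the Adipoq counts were higher in TPMCa, at 67 and 577 in the 2 libraries, than in TPM, at 18 and 4. Bulk polyA RNA was sequenced from 8 libraries, 2 for each of the models TPM, TPMCa (labeled TPMPik3ca), TPMR1 (labeled TPMPik3r1) and TPK. According to the methods of the study, mouse uterus organoids were edited and transplanted into the uterus of nude mice, which lack mature T cells. The figure legends of the study give tumor tissue from 2 mice for each of TPM, TPMCa, TPMR1 and TPK. All 4 models carried an sgRNA against Trp53, TPM carried Myc overexpression, TPMCa added a Pik3ca E545K cDNA to it, TPMR1 added an sgRNA against Pik3r1, and TPK lacked the Myc overexpression and carried another edit in its place. The introduced cDNAs and guides came from retroviral and lentiviral vectors. The labels name cultured tumor organoids, while the methods describe tumor tissue, and the text below calls each sample a library. Which of these was sequenced bears on how an adipocyte could be present, and it was not settled here.

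Adipocytes store triglyceride in a lipid droplet coated by perilipins and CIDE proteins, and release it as fatty acids when energy is needed. They also secrete adipokines, among them adiponectin, leptin and, in mice, resistin and adipsin. The nuclear receptor PPARγ, acting with C/EBP factors, switches on most of these genes during adipocyte formation, and fat tissue lies around the mouse uterus. Several of the 10 genes are used by other cells too: Fabp4 by capillary endothelium and macrophages, Lpl by muscle and macrophages, Pparg by macrophages and some epithelia, and perilipins by steroid-producing cells.

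Libraries held between 15748396 and 26943611 counts, and levels are given as CPM, counts scaled to a common library size with the TMM method. A floor of 3 counts corresponded to 0.116 to 0.198 CPM and covers counting error only. Libraries stood apart in marker genes of other cells. Summed over 6 epithelial markers, all 4 TPMCa and TPMR1 libraries were between 6.47 and 73.3 CPM and all 4 TPM and TPK libraries between 2940 and 5500 CPM. TPMR1 replicate 1 had a summed level of 5080 CPM for 5 steroid-producing cell markers and TPMR1 replicate 2 had 446 CPM, against 6.39 to 22.7 CPM in the other 6 libraries. TPK replicate 2 had 1080 CPM for 6 skeletal muscle markers, against 2.23 to 84 CPM elsewhere. TPM replicate 2 had 392 CPM for 8 sebaceous gland markers, against 60.6 to 209 CPM elsewhere. In bulk libraries, fewer cells of a type and less RNA per cell cannot be told apart.

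The 10 genes did not form 1 pattern across the libraries. Adipoq, Cfd, Retn and Cidec were highest in TPMCa replicate 2, next in TPK replicate 1 and then in TPMCa replicate 1. Plin1 and Plin4, which coat the lipid droplet, were instead highest in TPMR1 replicate 1, where Adipoq had 13 counts. Lep was at or near the floor in every library. Adipoq, Cfd, Retn and Cidec are set together below, a grouping made after their values were seen that leaves out Plin1. The high perilipin levels of TPMR1 replicate 1 came with low levels of Adipoq, Cfd, Retn and Cidec, at 13, 100, 8 and 13 counts in the same order.

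To show the DNA upstream of genes that followed one order of libraries (Adipoq, Cfd, Retn) and of genes that left it (Plin1, Plin4), their sequences before the RefSeq transcript start are printed 5′ to 3′ on the gene's strand, from RefSeq on GRCm38.p6. Windows of 250 bases were searched on both strands for the C/EBP core TTGCNNAA, for the nuclear receptor element AGGTCA and for a direct repeat of that element spaced by 1 base, which contains it. Capitals mark a match. The windows printed are chr16:23146286-23146535 on the plus strand for Adipoq, chr10:79890603-79890852 on the plus strand for Cfd, chr8:3655520-3655769 on the plus strand for Retn, chr7:79732904-79733026 on the minus strand for Plin1 and chr17:56109804-56110032 on the minus strand for Plin4, the last 2 shortened to the part outside the annotated gene.
Adipoq: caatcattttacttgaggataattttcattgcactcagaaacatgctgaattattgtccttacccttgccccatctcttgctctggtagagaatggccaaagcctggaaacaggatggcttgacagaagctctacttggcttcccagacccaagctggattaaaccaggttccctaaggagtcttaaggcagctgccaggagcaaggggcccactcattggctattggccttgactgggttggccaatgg
Cfd: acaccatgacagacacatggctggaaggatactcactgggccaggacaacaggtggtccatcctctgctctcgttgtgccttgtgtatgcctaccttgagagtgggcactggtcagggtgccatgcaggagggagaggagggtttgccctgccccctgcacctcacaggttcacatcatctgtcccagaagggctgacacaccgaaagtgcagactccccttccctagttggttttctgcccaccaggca
Retn: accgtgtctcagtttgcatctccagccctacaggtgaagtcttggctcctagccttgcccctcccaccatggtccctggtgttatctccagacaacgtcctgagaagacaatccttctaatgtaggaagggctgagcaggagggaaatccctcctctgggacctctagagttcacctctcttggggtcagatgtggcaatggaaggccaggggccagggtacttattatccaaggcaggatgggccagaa
Plin1: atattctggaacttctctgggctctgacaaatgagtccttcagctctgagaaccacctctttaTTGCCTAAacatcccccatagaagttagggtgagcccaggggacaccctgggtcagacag
Plin4: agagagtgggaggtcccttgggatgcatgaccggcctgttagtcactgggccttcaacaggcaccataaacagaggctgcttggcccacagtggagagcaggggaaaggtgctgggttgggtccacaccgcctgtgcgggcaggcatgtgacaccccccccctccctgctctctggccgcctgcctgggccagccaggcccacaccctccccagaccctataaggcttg
Windows were found for 9 of the 10 genes, with none for Fabp4. The C/EBP core occurred in 9.56% of 32851 windows of all genes. It occurred 2 times in the full Plin1 window, starting 187 and 58 bases before the start, and was not found in the windows of Adipoq, Cfd, Retn or Plin4. Lep had it 55 bases before its start, and 1 of 2 Cidec windows and 1 of 3 Pparg windows held it too. The single element occurred in 14% of all windows and, among the 10 genes, in 2 of the 3 Pparg windows, and the direct repeat occurred in 0.0335% of all windows and in no window of these genes. A match in these letters is a description of the sequence and not evidence of binding.

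**Figure D1:**
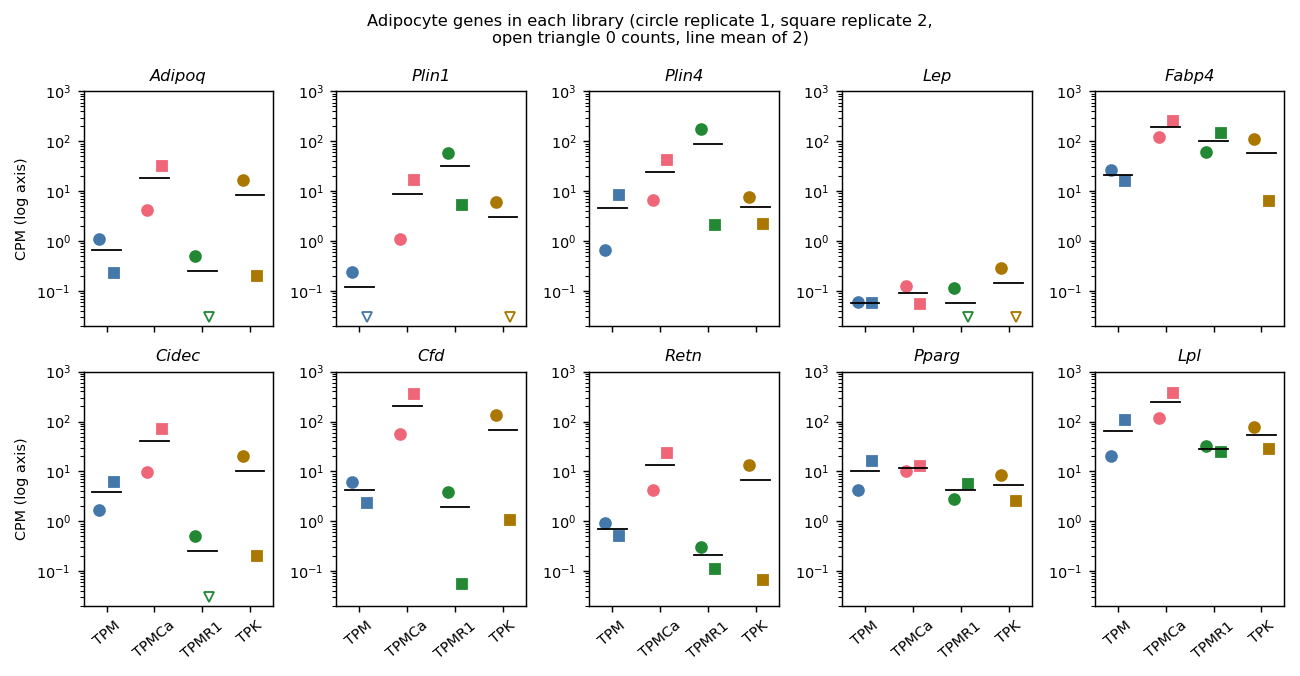
Level of each of the 10 adipocyte genes in CPM (log axis) in the 2 libraries of each model, with replicate 1 as a circle, replicate 2 as a square, a library with 0 counts as an open triangle at the bottom and the mean of the 2 as a line. Adipoq, Cfd, Retn and Cidec peak in TPMCa replicate 2 with 32.1, 356, 23.2 and 72.3 CPM, and Plin1 and Plin4 in TPMR1 replicate 1 with 58.7 and 178 CPM.

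Among the secreted products, Adipoq, which encodes the hormone adiponectin (chromosome 16, 23146536 to 23158028, plus strand of GRCm38), was at 1.08 and 0.229 CPM in the TPM libraries, 4.24 and 32.1 in TPMCa, 0.503 and 0 in TPMR1, and 16.6 and 0.198 in TPK. The 0 in TPMR1 replicate 2 allows at most the floor of 0.167 CPM. Both TPMCa libraries were above both TPM libraries, whereas the TPK libraries reached from the floor to the second highest level of the 8. Its mean was 18.2 ± 19.7 CPM in TPMCa and 0.656 ± 0.604 CPM in TPM (SD, n = 2 each), a log2 fold change of 4.78 with an SE of 2.23, given as a description because the genes were picked on this contrast.

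Cfd, the gene of the serine protease adipsin (complement factor D; chromosome 10, 79890853 to 79892655), was the highest of the secreted products per length of transcript. Its levels were 6.02 and 2.35 CPM in TPM, 55.9 and 356 in TPMCa, 3.87 and 0.0556 in TPMR1, and 132 and 1.05 in TPK. The second TPMR1 library held 1 count of it. TPMCa was above TPM in both libraries, and the TPK libraries differed from each other 125-fold (95% interval from counting error 77.1 to 220), more than the mean difference between any models.

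Retn, encoding resistin (chromosome 8, 3655770 to 3660110), was at 0.903 and 0.515 CPM in TPM, 4.18 and 23.2 in TPMCa, 0.31 and 0.111 in TPMR1, and 13.3 and 0.0659 in TPK. The order of libraries was close to that of Adipoq, and the TPMR1 libraries lay below both TPM libraries. Lep, the gene of the satiety hormone leptin (chromosome 6, 29060220 to 29073877), had 1 and 1 counts in TPM, 2 and 1 in TPMCa, 3 and 0 in TPMR1, and 5 and 0 in TPK. At this depth no difference in Lep was detectable, and it did not pass the filter on low counts.

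Of the lipid droplet genes, Cidec, whose product fuses droplets into large ones (chromosome 6, 113424634 to 113435760, minus strand), was at 1.69 and 6.12 CPM in TPM, 9.75 and 72.3 in TPMCa, 0.503 and 0 in TPMR1, and 20.3 and 0.198 in TPK. It followed Adipoq apart from TPM replicate 2, where its level per kilobase of transcript was 19.7 times that of Adipoq, against 0.736 to 1.69 times in the other 5 libraries with over 3 counts of Adipoq. The Adipoq count there was 4. In that library the sebaceous gland markers Awat1, which makes wax esters, and Cidea, another CIDE protein that sebocytes use, were at 23.1 and 71.4 CPM, against 0 to 2.41 and 0.317 to 16 CPM elsewhere. The list did not move as one. Mc5r was at 0.114 CPM there, and Soat1 and Scd3, at 149 and 7.32 CPM, were below their 185 and 17.3 CPM in TPMR1 replicate 1. Awat1, Soat1 and Scd3 were singled out after their values were seen. The part of sebaceous cells in the Cidec level was not tested.

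Plin1, the main perilipin of adipocyte droplets and a gatekeeper of lipolysis (chromosome 7, 79720218 to 79732903, minus strand), had 4 and 0 counts in TPM, 17 and 296 in TPMCa, 1516 and 94 in TPMR1, and 105 and 0 in TPK. Levels were thus 58.7 and 5.22 CPM in TPMR1 and 1.08 and 16.5 CPM in TPMCa, while TPM reached at most 0.241 CPM. All 4 TPMCa and TPMR1 libraries were above both TPM libraries. Plin4, a perilipin of small droplets (chromosome 17, 56100591 to 56109803, minus strand), was at 0.662 and 8.52 CPM in TPM, 6.71 and 42.5 in TPMCa, 178 and 2.11 in TPMR1, and 7.49 and 2.24 in TPK. Here TPM overlapped every other model, and the 2 TPMR1 libraries differed 84.1-fold (61.2 to 119). Plin4 overlaps Hdgfl2 on the other strand and, since strand-specific counting is not given in the sources used here, the counts of these genes could be mixed.

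Per kilobase of transcript, Plin1 stood at 0 to 0.171 times Adipoq in TPM, TPMCa and TPK replicate 1, and at 38.9 times Adipoq in TPMR1 replicate 1. Plin4 stood at 0.101 to 0.354 times Adipoq in TPM replicate 1, both TPMCa libraries and TPK replicate 1, at 8.33 times in TPM replicate 2 and at 78.9 times in TPMR1 replicate 1. In contrast, Cfd stayed between 7.79 and 18.4 times Adipoq and Retn between 0.504 and 1.84 times in the same 6 libraries. The remaining libraries, TPK replicate 2 and TPMR1 replicate 2, held 3 and 0 counts of Adipoq, so no ratio was formed. Thus Cfd and Retn kept a narrow ratio to Adipoq, and the perilipins left it in TPMR1 replicate 1. The summed steroid-producing cell markers were highest in that same library. Cyp11a1, the cholesterol side-chain cleavage enzyme, was at 3770 and 182 CPM in TPMR1 replicates 1 and 2. Nr5a1, the steroidogenic regulator SF-1, was at 753 and 148 CPM there, and Star at 468 and 18.5 CPM. In the other models Cyp11a1 and Nr5a1 reached at most 8.46 and 5.23 CPM. Hsd3b1 went the other way, at 35 and 91.1 CPM in the TPMR1 replicates. The part of steroid-producing cells in the perilipin levels was not tested. Plin5, a perilipin of tissues that burn fat, named here after its values were seen, was at 420 CPM in TPMR1 replicate 1 and between 0.114 and 4.06 CPM in the other 7 libraries.

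**Figure D2:**
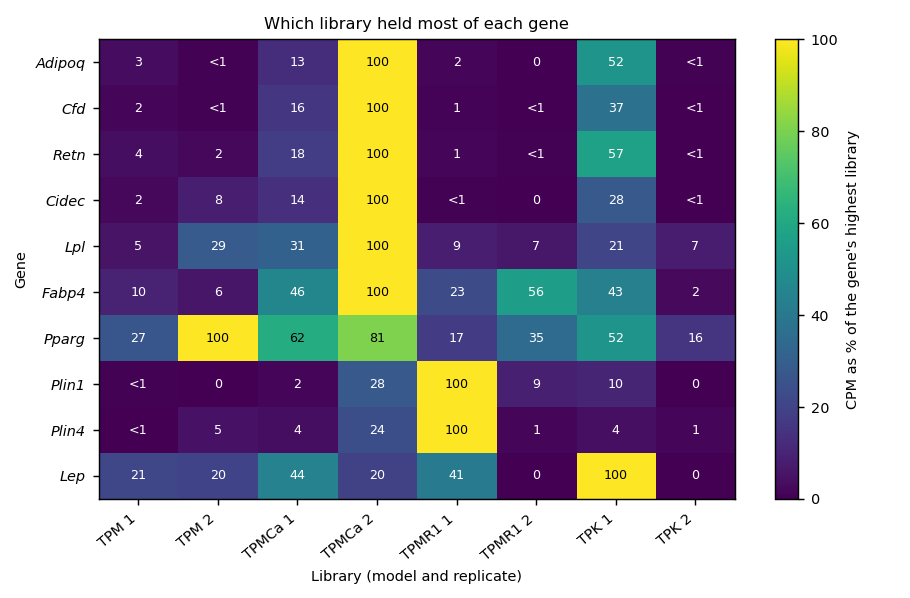
CPM of each adipocyte gene (rows) in each library (columns) as a percentage of that gene's highest library. The top 4 rows share their high libraries, TPMCa replicate 2 and TPK replicate 1, while Plin1 and Plin4 reach 100% in TPMR1 replicate 1, where Adipoq is at 1.57%.

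Genes of fatty acid handling were above the floor in every library. Fabp4, the fatty acid carrier aP2 (chromosome 3, 10204088 to 10208576, minus strand), was at 26.1 and 15.9 CPM in TPM, 120 and 261 in TPMCa, 60.6 and 146 in TPMR1, and 113 and 6.33 in TPK. Both TPM libraries lay below all TPMCa and TPMR1 libraries. In TPMR1 replicate 2, Adipoq had 0 counts and Fabp4 had 2635, with the second highest Fabp4 level of the series. The endothelial markers summed to 689 CPM in this library, 456 and 628 CPM in TPMCa, 187 CPM in TPMR1 replicate 1, 149 and 134 CPM in TPM, and 201 and 66.8 CPM in TPK. All 8 of them were above the floor in every library, with the endothelial cadherin Cdh5 at 255 CPM in TPMR1 replicate 2 and 13.4 CPM in TPK replicate 2. The list did not move as one: Vwf, the endothelial clotting protein, was at 1.7 and 3.89 CPM in TPMR1 and 15.1 and 7.29 CPM in TPMCa, against 14 and 19.4 CPM in TPM and 26.3 CPM in TPK replicate 1. The receptor Tek was at 4.56 CPM in TPMR1 replicate 2 and at 4.21 and 4.12 CPM in TPM. Vwf and Tek were singled out after their values were seen. The part of endothelial cells in the Fabp4 level was not tested.

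Lpl, the lipase that frees fatty acids from circulating lipoproteins (chromosome 8, 68880491 to 68907448), was at 20.3 and 106 CPM in TPM, 116 and 371 in TPMCa, 31.8 and 24.2 in TPMR1, and 77.4 and 27.7 in TPK. TPMCa was above TPM in both libraries, but its lower library exceeded the higher TPM library by little. Pparg, the master regulator (chromosome 6, 115360951 to 115490399), had the smallest ratio of highest to lowest level among the 9 genes tested, reaching from 2.51 CPM in TPK replicate 2 to 16.1 CPM in TPM replicate 2. Its levels were 4.33 in the other TPM library, 10 and 13 in TPMCa, 2.79 and 5.61 in TPMR1, and 8.34 in TPK replicate 1, so that TPMCa lay above both TPMR1 and TPK and TPM overlapped all of them. Pparg overlaps Gm44079 on the other strand.

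Replicates of 1 model differed by more than counting error for most of the genes. Replicate 1 of TPK was higher than replicate 2 for all 10 genes, by 84.1-fold for Adipoq (28.5 to 410), 103-fold for Cidec (34.8 to 500), 17.9-fold for Fabp4 (14.6 to 22.2) and 2.8-fold for Lpl (2.5 to 3.13). Lep, with 5 and 0 counts, is within counting error in this count. In TPMCa, replicate 2 was the higher one for 9 of the 10 genes, by 7.57-fold for Adipoq (5.87 to 9.9), 15.3-fold for Plin1 (9.39 to 26.6) and 1.3-fold for Pparg (1.06 to 1.6). In TPMR1, replicate 1 was the higher one for 8 of the 10 genes, by 11.2-fold for Plin1 (9.12 to 14), and replicate 2 was higher for Fabp4 and Pparg. TPM had no such common direction, with 6 genes higher in replicate 1 and 4 in replicate 2.

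Levels can be compared between genes per kilobase of transcript. In TPMCa, Cfd and Fabp4 led with mean levels of 223 and 213 CPM per kilobase, followed by Lpl at 59.2, Cidec at 23.4, Adipoq at 14.1, Retn at 8.67, Pparg at 4.84, Plin4 at 4.26 and Plin1 at 2.27. In TPMR1 the order was different, with Fabp4 at 116, Plin4 at 15.6, Plin1 at 8.25, Lpl at 6.8, Cfd at 2.13 and Adipoq at 0.195 CPM per kilobase. In TPM, Fabp4 and Lpl led with 23.5 and 15.4 CPM per kilobase and Plin1 was at 0.0311. TPK had Cfd at 72.3 and Fabp4 at 66.8 CPM per kilobase, with Adipoq at 6.51. These means rest on 2 libraries each, and differences between neighbors in these orders were not tested.

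The first comparison asked how a Pik3ca E545K cDNA in addition to the TPM edits went with the adipocyte genes. It is the contrast the genes were picked on, so its values are a description. TPMCa was above TPM without overlap for 7 of the 9 genes that passed the filter, namely Adipoq, Cfd, Cidec, Fabp4, Lpl, Plin1 and Retn, beside 29.1% of all 15875 genes tested, and 0 of the 9 lay below, beside 32.2%. By edgeR 0 of the 9 passed an adjusted p under 0.05, beside 3.48% of all genes, and by DESeq2 2 did (Cfd and Fabp4, both higher), beside 6.12% of all genes higher, and nothing is read from these counts. The log2 fold changes were 6.13 for Plin1, 5.62 for Cfd, 4.26 for Retn, 3.39 for Cidec, 3.18 for Fabp4, 2.42 for Plin4, 1.94 for Lpl and 0.17 for Pparg. With each of the 4 libraries left out in turn, these values lay between 3.11 and 10.36 for Plin1, 2.69 and 6.31 for Adipoq, 1.32 and 4.59 for Cidec, 0.55 and 5.2 for Plin4, and 0.87 and 3.58 for Lpl, and the lowest value of each came without TPMCa replicate 2. The median of the 9 was 3.39, beside -0.01 for all genes. The summed macrophage markers were at 877 and 3690 CPM in TPMCa and 803 and 374 CPM in TPM, and the fibroblast markers at 8580 and 16700 CPM against 6450 and 2460 CPM. All 7 macrophage and all 7 fibroblast markers were above the floor in these libraries. Endothelial markers were at 456 and 628 CPM in TPMCa and 149 and 134 CPM in TPM. Epithelial markers were at 73.3 and 23.7 CPM in TPMCa and 5500 and 2940 CPM in TPM, with 4 of 6 lower by edgeR at an adjusted p under 0.05. The part of these cells in the difference was not tested.

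TPMR1 against TPM, which asks the same of an sgRNA against Pik3r1, uses TPM libraries on which the genes were picked. By the edgeR quasi-likelihood test with Benjamini-Hochberg adjustment over all genes, 0 of the 9 genes passed an adjusted p under 0.05, beside 5.58% of all genes tested. At an unadjusted p under 0.05 there was 1, Plin1, beside 23.1% of all genes. Plin1 had a log2 fold change of 7.99 with an SE of 2.9 (edgeR, adjusted p = 0.163), Plin4 one of 4.29 (edgeR, adjusted p = 0.279) and Fabp4 one of 2.3 (edgeR, adjusted p = 0.302). Plin1 and Fabp4 lay above TPM without overlap, as did 24.5% of all genes, and Cidec and Retn lay below, as did 28.4%. The other values were -3.83 for Cidec, -1.68 for Retn, -1.29 for Pparg, -1.28 for Adipoq, -1.18 for Lpl and -1.05 for Cfd. Without TPMR1 replicate 1 the value for Plin4 turned to -1.12, and Adipoq turned to 0.22 without TPM replicate 1, as did Lpl to 0.46 without TPM replicate 2. DESeq2 called Plin1 (adjusted p = 0.0377) and Plin4 (adjusted p = 0.0472) as higher, beside 6.38% of all genes higher by that tool. Epithelial markers were at 6.47 and 27.4 CPM in TPMR1 and 5500 and 2940 CPM in TPM, with 6 of 6 lower by edgeR at an adjusted p under 0.05. Among the 5 steroid-producing cell markers 1, Nr5a1, was higher, with a log2 fold change of 10.56 (edgeR, adjusted p = 0.0234). The part of these cells was not tested.

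TPK against TPM compares a model without Myc overexpression, and it also shares the TPM libraries. None of the 9 genes passed an adjusted p under 0.05 by edgeR or DESeq2, as was the case for 0 of all genes by edgeR, and 0 had an unadjusted p under 0.05 by edgeR, beside 7.17% of all genes. By DESeq2, 0.601% of all genes were higher and 0.966% lower. The groups overlapped for all 9 genes, beside 24.4% of all genes higher and 23.5% lower without overlap. Log2 fold changes reached 4.59 for Plin1, 4 for Cfd, 3.67 for Adipoq and 3.23 for Retn. They came from TPK replicate 1. Without it, the same values were -4.19 for Plin1, -1.99 for Cfd, -1.71 for Adipoq and -3.31 for Retn, and Cidec turned from 1.39 to -4.25 and Fabp4 from 1.51 to -1.74. In TPK replicate 2 the skeletal muscle marker Acta1 was at 563 CPM against 0.229 CPM in replicate 1, while the macrophage markers were at 1370 and 2260 CPM. Their part was not tested.

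TPMR1 against TPK compares no library of the contrast on which the genes were picked. Its filter and spread still came from all 8 libraries, TPM and TPMCa included. In a fit of only TPMR1 and TPK, 6 of the 10 genes passed the filter and 0 had an adjusted p under 0.05. Again 0 of 9 genes passed an adjusted p under 0.05 by edgeR, beside 10.3% of all genes tested, and 1, Retn, had an unadjusted p under 0.05, beside 30% of all genes. The groups overlapped for all 9 genes, while 26.5% of all genes were higher and 31% lower without overlap. Values were negative for the adipokine genes and Cidec and positive for the perilipins. The log2 fold changes were -4.95 with an SE of 2.28 for Adipoq (edgeR, adjusted p = 0.199), -5.05 for Cfd (edgeR, adjusted p = 0.197), -4.91 for Retn (edgeR, adjusted p = 0.163) and -5.22 for Cidec (edgeR, adjusted p = 0.178). They were 4.2 for Plin4 (edgeR, adjusted p = 0.228) and 3.41 for Plin1 (edgeR, adjusted p = 0.346). Fabp4, Lpl and Pparg had values of 0.79, -0.91 and -0.37. DESeq2 placed 5 of the 9 under an adjusted p of 0.05, Plin4 as higher (adjusted p = 0.0387) beside 11.1% of all genes, and Retn (0.0172), Cidec (0.0193), Cfd (0.0219) and Adipoq (adjusted p = 0.0336) as lower beside 13.8%. The directions of Adipoq, Cfd, Cidec, Retn and Plin4 rested on 2 libraries. Plin1 stayed positive, between 0.79 and 12.2, with a library of these models left out. Without TPK replicate 1 the values for Adipoq, Cfd, Cidec and Retn became 0.4, 0.92, 0.41 and 1.61, and without TPMR1 replicate 1 that for Plin4 became -1.2.

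**Figure D3:**
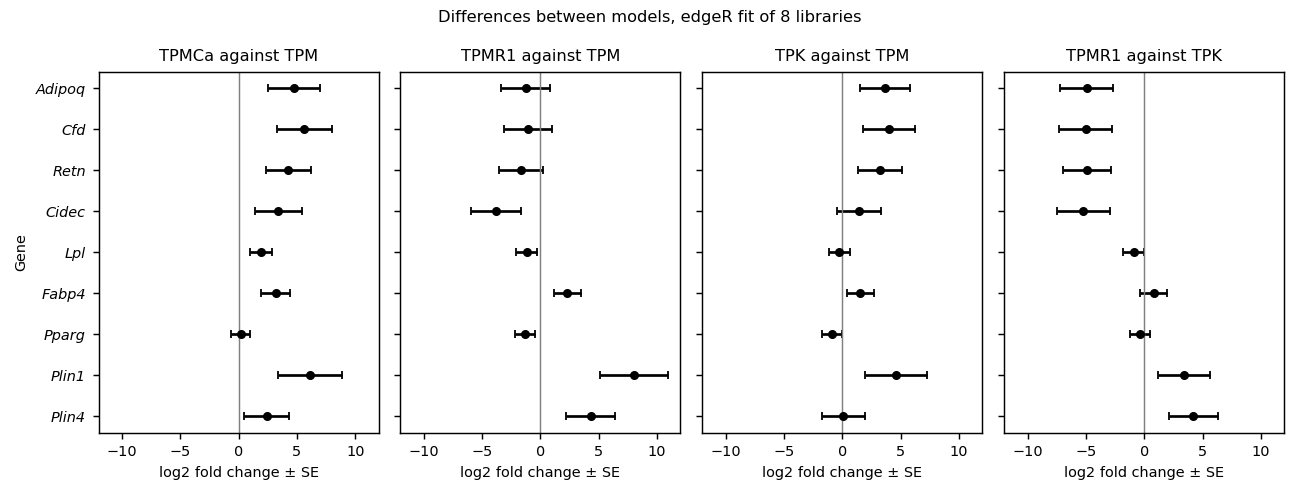
Log2 fold change (points) and its standard error (bars) of the 9 adipocyte genes tested, from 1 edgeR fit of 8 libraries, in each of the 4 comparisons. Adipoq, Cfd, Retn and Cidec lie between -5.22 and -4.91 in TPMR1 against TPK, while Plin1 and Plin4 lie above 0, and no gene passed an adjusted p under 0.05.

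Across the 8 libraries, the log2 CPM of Cfd (Pearson r = 0.986), Retn (r = 0.976) and Cidec (r = 0.898) was most like that of Adipoq among these genes. Lpl followed with 0.73, Fabp4 with 0.564, Pparg with 0.465, Plin1 with 0.372 and Plin4 with 0.315. Outside the 10 genes, the 5 most like Adipoq among genes with a mean log2 CPM of at least 0 were Cyp2e1, a cytochrome P450 that fat also expresses (0.955), Clec10a, a lectin of macrophages and dendritic cells (0.947), Serpina3n, a secreted protease inhibitor (0.935), 1700112E06Rik (0.928) and Pqlc3 (0.905). These values describe 8 points that share libraries and models. Cyp2e1 was at 4.09 and 0.69 CPM in TPM, 53.6 and 123 in TPMCa, 3.41 and 0 in TPMR1, and 31.6 and 0.26 in TPK, and Clec10a at 37.7 CPM in TPMCa replicate 2 and 29 CPM in TPK replicate 1, so that the likeness again rests on the high libraries.

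A wider set of 99 adipocyte genes, sorted by role, was all found, 2 of them under an older symbol, and 96 were tested. In TPMR1 against TPK, 6 were higher and 6 lower by edgeR at an adjusted p under 0.05, beside 3.31% and 7.03% of all genes. The higher genes were Thrsp, an activator of fat synthesis, Me1, which supplies NADPH for it, Gpam, the first enzyme of glycerolipid synthesis, Apln, the secreted peptide apelin, Dlk1, which marks precursors and is also made by endocrine cells, and the precursor factor Zfp423. Thrsp was at 668 and 57.1 CPM in TPMR1 and 3.54 and 2.24 CPM in TPK, a log2 fold change of 6.96 with an SE of 1.48 (edgeR, adjusted p = 0.0343). Gpam was at 529 and 122 CPM against 16.3 and 15.2 CPM (log2 fold change 4.37, edgeR, adjusted p = 0.0207), and Me1 at 2890 and 222 CPM against 56.5 and 79.8 CPM (4.51, edgeR, adjusted p = 0.0497). Dlk1 was at 63.2 and 555 CPM in TPMR1 and 0.229 and 0.461 CPM in TPK (9.8, edgeR, adjusted p = 0.0183). Of the steroid-producing cell markers, 3 of 5 were also higher in this comparison (Cyp11a1, Cyp17a1 and Nr5a1). Within TPMR1, Cyp11a1, Cyp17a1, Nr5a1 and Star were higher in replicate 1, as were Thrsp, Gpam and Me1. Of the 5 markers, Hsd3b1 went the other way, at 35 and 91.1 CPM in replicates 1 and 2. Dlk1, Apln (130 and 369 CPM) and Zfp423 (11.4 and 56.7 CPM) were instead higher in replicate 2. The part of steroid-producing cells was not tested.

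The lower genes were Cebpa, the C/EBP factor that maintains the adipocyte state, Acsl1, which activates fatty acids, Car3, a carbonic anhydrase abundant in fat and muscle, Klf5, a factor of both adipocyte formation and epithelia, the synuclein Sncg and the zinc finger factor Zfp467. Cebpa was at 60 and 30.8 CPM in TPMR1 and 186 and 181 CPM in TPK (log2 fold change -2.01, edgeR, adjusted p = 0.0323). Car3 was at 0.813 and 0.611 CPM against 60.7 and 139 CPM (-7.11, edgeR, adjusted p = 0.036). Car3 was thus high in both TPK libraries, although Adipoq was high in replicate 1 and at the floor in replicate 2. The summed skeletal muscle markers were at 2.23 and 1080 CPM in TPK replicates 1 and 2. The part of muscle in the Car3 level was not tested. Klf5 was at 0.968 and 1.83 CPM in TPMR1 and 107 and 116 CPM in TPK (-6.32, edgeR, adjusted p = 0.0314). Epithelial markers moved in the same direction, all 6 of 6 lower in TPMR1 than in TPK, summing to 6.47 and 27.4 CPM against 3240 and 4960 CPM, and their part was not tested.

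Fewer of the wider set passed in the other comparisons. In TPMR1 against TPM, Angptl4, Apln and Thrsp were higher and Acsl1, Cebpa, Cidea and Rxra lower, 3 and 4 of 96 beside 1.08% and 4.5% of all genes. In TPK against TPM 0 of 96 passed by edgeR and 12 had an unadjusted p under 0.05, beside 7.17% of all genes. In TPMCa against TPM, described only, Angptl4, an inhibitor of lipoprotein lipase, stood at 139 and 153 CPM against 19.3 and 19.2 CPM, and Mest, an imprinted gene of growing fat, at 177 and 572 CPM against 12.3 and 11 CPM. Cidea stood at 0.317 and 1 CPM against 16 and 71.4 CPM. Of 96 genes, 2 were higher and 1 lower by edgeR there, beside 0.466% and 3.02% of all genes.

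By role, the gene with the highest mean level was Cebpb for regulators (356 CPM), Plin2 for the lipid droplet (264 CPM), Mgll for lipolysis (226 CPM), Fabp5 for fatty acid uptake and triglyceride synthesis (467 CPM), Fasn for lipogenesis (576 CPM), Insr for insulin action (74.7 CPM), Nampt for secreted products (126 CPM), Adipor1 for adipokine receptors (191 CPM), Cav1 for other adipocyte genes (145 CPM) and Ly6a for precursors (345 CPM). Plin2, the perilipin that most cells use, ranged from 99.1 to 521 CPM and did not peak where Plin1 did, at 196 CPM in TPMR1 replicate 1. Mgll, the last enzyme of triglyceride breakdown, was at 1160 CPM in that library and 20.4 to 282 CPM in the others. Without TPMR1 replicate 1 the mean of Mgll was 91.6 CPM, below that of Pnpla2, the first lipase of triglyceride breakdown, at 99.4 CPM. The first place also changed for lipogenesis, where Scd1 led Fasn without TPM replicate 1 (601 against 579 CPM), TPMCa replicate 1 (597 against 579 CPM) or TPMR1 replicate 2 (610 against 587 CPM), and for other adipocyte genes, where Mest led Cav1 without TPMR1 replicate 2 (113 against 102 CPM). Among the brown and beige genes Dio2 had the highest mean, 8.8 CPM, but single libraries were higher, with Dio2 at 36.2 and Elovl3 at 57.2 CPM in TPM replicate 2, Prdm16 at 21.3 CPM in TPMCa replicate 2 and Cox7a1 at 21.6 CPM in TPMR1 replicate 1. Elovl3, Prdm16, Cox7a1, Pnpla2 and Scd1 are named after their values were seen. Without TPM replicate 2 Prdm16 led Dio2 (5.25 against 4.9 CPM), and without TPMR1 replicate 2 Elovl3 did (8.44 against 8.28 CPM). The brown fat marker Ucp1 was between 0 and 0.334 CPM, at most 6 counts.

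Summed marker levels set the adipocyte genes beside other cell types. Adipoq, Cfd, Cidec and Retn were grouped for this after their values were seen. Together they were at 9.69 and 9.21 CPM in TPM, 74 and 484 CPM in TPMCa, 5.19 and 0.167 CPM in TPMR1, and 183 and 1.52 CPM in TPK. Macrophage markers were also highest in TPMCa replicate 2 (3690 CPM) and next in TPK replicate 1 (2260 CPM). TPK replicate 2 followed (1370 CPM), where Adipoq, Cfd, Cidec and Retn together were at 1.52 CPM. The macrophage list did not move as one there. Lyz2 and Csf1r, at 1110 and 110 CPM in TPK replicate 2, were above their 562 and 93.9 CPM in TPMCa replicate 1. Adgre1, Cd68, Cd163, Mrc1 and Marco, at 32.3, 69.9, 9.3, 36.1 and 0.593 CPM, were below TPMCa replicate 1. Their levels in TPMCa replicate 1 were 35.1, 108, 18.9, 56.4 and 2.28 CPM. Macrophage markers in TPMR1 were at 186 and 612 CPM. Summed fibroblast markers were highest in the same 2 libraries, at 16700 and 9980 CPM, and lowest in TPMR1 replicate 1 at 904 CPM. Col1a2, Col3a1, Dcn and Lum were also highest in these 2 libraries, but Pdgfrb was highest in TPMR1 replicate 2 at 176 CPM. Col1a1 and Pdgfra were higher in TPMCa replicate 1 (3260 and 113 CPM) than in TPK replicate 1 (2770 and 94.2 CPM). The part of these cells in the levels of the adipocyte genes was not tested.

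**Figure D4:**
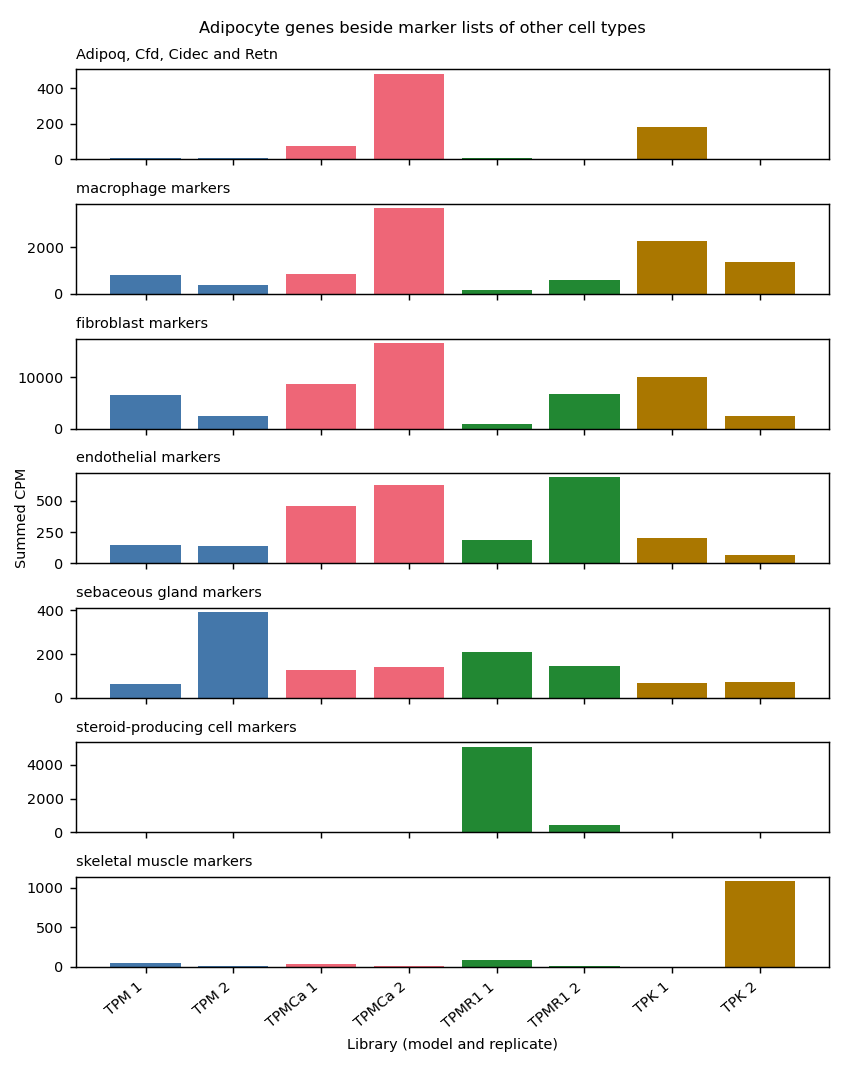
Summed CPM in each library (bars, 1 per library, each axis starting at 0) of Adipoq, Cfd, Cidec and Retn in the top panel and of marker lists of 6 other cell types below. The genes of the top panel were grouped after their values were seen. TPMCa replicate 2 is highest for them (484 CPM), macrophage markers (3690 CPM) and fibroblast markers (16700 CPM), and TPMR1 replicate 1 for steroid-producing cell markers (5080 CPM).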

How the data were processed

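The authors aligned reads to mm10 with STAR and deposited whole-number counts per gene symbol, per the labels and methods; the counter, annotation and strandedness are not given in the sources used here. A table of counts normalized by the authors with DESeq2 was not used. The columns named TPMS were matched to the TPM samples by title. With edgeR 4.0.16 in R 4.3.3, counts were TMM-scaled and filtered with filterByExpr, which left 15875 of 24419 genes, and the model was the single factor of a quasi-likelihood fit to all 8 libraries (common dispersion 0.269). P-values are two-sided and adjusted by Benjamini-Hochberg over all genes tested. DESeq2 1.42.0 was an alternative. The spread in these p-values is only that between the 2 libraries of a model, estimated over all 4 models together. A comparison of 2 models thus also depends on the models it does not compare. Log2 CPM used a prior count of 2. Transcript lengths are those of basic protein-coding transcripts of GENCODE M21, with exons merged. Intervals are exact at 95% and cover counting error. The 10 genes, the 99-gene set and the marker lists were chosen with earlier results of these data known. Named genes are the 10, genes of the wider set past an adjusted p under 0.05 or highest by role, the first or called markers, and the 5 genes most like Adipoq. Alternatives covered the test, scaling, filter, samples in the fit, replicate number and leaving out each library of the 2 models compared. The fits were tested on simulated data. Some engineered genes are not reported here.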

Additional observations from a re-analysis of the deposited data

How the results depend on the processing

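The count of adipocyte genes passing an adjusted p under 0.05 was 0 in each comparison by edgeR with TMM scaling, with DESeq2 size factors, with library size alone, without a filter on low counts and with a stricter one. Each library of the 2 models compared was also left out in turn, and the log2 fold changes of these fits are described below. The Wald test of DESeq2 gave 2 in TPMCa against TPM, 2 in TPMR1 against TPM and 5 in TPMR1 against TPK, and a fit of only the 2 models compared gave 1 in TPMCa against TPM, where the genes were picked. The cause was not tested. Over all genes, the Wald test called 2577, 2866, 245 and 4078 in the 4 comparisons (TPMCa against TPM, TPMR1 against TPM, TPK against TPM, TPMR1 against TPK), against 553, 886, 0 and 1641 by edgeR. Fits of only 2 models called 1264, 53, 0 and 301. With a library left out, between 38 and 230, 164 and 2059, 0 and 0, and 208 and 2659 were called. With the replicate number as a block, 0 adipocyte genes passed in each comparison, and 362, 557, 0 and 1038 of all genes did. No pairing by replicate number was seen over all genes, where differences between replicates correlated between -0.0687 and -0.00819 across models. A smaller effect shared by libraries of the same number was not tested.

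Of 36 log2 fold changes with a library left out, 2 changed sign in TPMCa against TPM (Pparg), 3 in TPMR1 against TPM, 11 in TPK against TPM and 9 in TPMR1 against TPK. Under the other alternatives, Lpl and Plin4 changed sign in TPK against TPM, and no other value did. Counts of 0 to 5 for Lep, and of 0 to 4 for Adipoq in 3 libraries, limit what any fold change of these genes can show. The same limit holds for Plin1, with 4 and 0 counts in TPM and 0 in TPK replicate 2. Cidec and Retn were also at or below the floor of 3 counts in TPK replicate 2 and TPMR1 replicate 2, as was Cfd in TPMR1 replicate 2.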
